A study of Mus musculus with 6 samples.

Results

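Fibroblast growth factors, neurotrophins and glial cell line-derived neurotrophic factor are secreted proteins that act on the survival, division and maturation of neural cells. The 9 genes described here are the FGF ligands Fgf1, Fgf2 and Fgf9, the FGF receptors Fgfr1, Fgfr2 and Fgfr3, the neurotrophin Bdnf with its receptor gene Ntrk2, and Gdnf. They were taken by name from 18194 genes measured on 6 one-colour microarrays, through probe sets that the array annotation assigns to exactly 1 gene symbol. Such a probe set is a group of short probes read together as 1 value. The 9 genes have 25 such probe sets, and for each gene the probe set with the highest mean over the 6 arrays stood for it, with the others as a check.

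RNA was extracted from the subventricular zone, a germinal layer beside the lateral ventricles, in C57BL/6 mice that were adult and male. The 3 MCAO samples were taken 48 h after middle cerebral artery occlusion, a stroke model, on the side of the lesion, and the 3 sham samples 48 h after sham surgery. The study's title is about how injury of the brain reaches stem and progenitor cells, and the labels name no transgene or drug in either group. They describe dissected tissue in one field and isolated cells in another. Nothing says that each array held a separate animal, so the spread behind each p-value is that of these samples and may be technical. Each array read RNA of many cells together, so a change in the number of cells of a type and a change in RNA per cell cannot be told apart.

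FGF ligands bind receptor tyrosine kinases together with heparan sulphate, and the receptors signal through the MAP kinase pathway, which induces feedback inhibitors such as the Sprouty proteins and DUSP6. FGF2 is widely used to keep neural stem cells dividing in culture. BDNF binds TrkB, the product of Ntrk2, which exists as a full-length receptor with a kinase domain and as truncated forms without it that astrocytes express. GDNF signals through GFR-alpha coreceptors and the kinase RET.

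Any pair of arrays had a Pearson's r of 0.975 to 0.992 over genes. Poly-A control probe sets, which read RNA spiked in at labelling, averaged 7.75 and 8.02 log2 on the arrays numbered 1 and 8.70 to 9.33 on the other 4, and a principal component holding 40.8% of the variance set the arrays numbered 1 apart. All 8 measured markers of progenitors and neuroblasts of the subventricular zone (among them Dcx, Sox2 and Nes) lay above the median gene in sham samples. So did all 9 astrocyte, all 6 striatal neuron, all 5 oligodendrocyte and all 5 ependymal markers, and 1 of 6 markers of cortical, hippocampal or septal excitatory neurons, so the samples held RNA of several cell types. Samples carry the numbers 1, 2 and 3 in each group. Same-numbered arrays deviated together from their group means, at correlations of 0.77, 0.44 and 0.48 across genes. Between MCAO and sham arrays of different numbers these correlations ran from -0.59 to 0.29. Each comparison is therefore also given with the sample number as a block where that changes a call.

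Sequence upstream of the start, from the RefSeq promoter table (GRCm38.p6), is shown for Fgfr3, Ntrk2 and the receptor-like gene Fgfrl1. Their brightest probe sets read higher after MCAO. It is also shown for Bdnf, the ligand gene of the TrkB receptor. These genes were picked by hand, and other receptor genes that read higher, such as Gfra1 (0.24), are not shown. The table held 7 of the 9 genes, without Fgf1 and Fgfr1. Where it lists several starts, as the 2 of Fgfr3 and the 7 of Bdnf, the most upstream one is shown, 5′ to 3′. Each window ends before the first annotated base of the gene. Capitals mark matches on either strand to a GC box (GGGCGG), an AP-1 site (TGANTCA), a STAT site (TTCNNNGAA) or a CRE (TGACGTCA), and no matches of different motifs overlapped.
Fgfr3 chr5:33721474-33721723 (+): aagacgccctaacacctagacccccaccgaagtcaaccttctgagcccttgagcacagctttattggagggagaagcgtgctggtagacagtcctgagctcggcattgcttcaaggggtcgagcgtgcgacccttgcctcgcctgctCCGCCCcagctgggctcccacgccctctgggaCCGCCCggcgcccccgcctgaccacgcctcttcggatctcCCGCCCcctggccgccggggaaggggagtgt
Fgfrl1 chr5:108693979-108694228 (+): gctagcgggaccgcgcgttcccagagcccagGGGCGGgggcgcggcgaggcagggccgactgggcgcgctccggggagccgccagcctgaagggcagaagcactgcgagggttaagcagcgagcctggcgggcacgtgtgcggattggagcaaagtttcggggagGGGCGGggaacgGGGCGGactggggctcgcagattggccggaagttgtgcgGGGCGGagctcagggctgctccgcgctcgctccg
Ntrk2 chr13:58806319-58806471 (+): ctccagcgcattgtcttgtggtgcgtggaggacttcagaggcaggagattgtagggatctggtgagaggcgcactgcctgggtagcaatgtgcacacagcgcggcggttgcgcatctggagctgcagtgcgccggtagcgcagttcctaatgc
Bdnf chr2:109674450-109674699 (+): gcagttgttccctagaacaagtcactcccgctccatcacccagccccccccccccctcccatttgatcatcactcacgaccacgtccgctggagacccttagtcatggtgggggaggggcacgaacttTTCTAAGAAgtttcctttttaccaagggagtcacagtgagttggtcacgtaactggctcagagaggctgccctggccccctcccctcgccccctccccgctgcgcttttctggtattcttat
The Fgfr3 window held 3 GC boxes and the Fgfrl1 window 4, a motif found in 32.7% of 32851 promoter windows of 250 bases. The Bdnf window held 1 STAT match, found in 7.02% of windows, while AP-1 was in 6.75% and CRE in 1.55%. In the Ntrk2 window of 153 bases none of these letters was found; at that length 17.1% of windows hold a GC box, 4.10% AP-1, 4.49% STAT and 0.384% CRE. These matches describe the sequence only.

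None of the 9 genes passed the test between MCAO and sham. With limma, and p-values adjusted over all 18194 genes by Benjamini-Hochberg, 0 of 9 had an adjusted p under 0.05, where 1.13% of all genes did (1.12% higher and 0.0165% lower in MCAO). At an unadjusted p under 0.05 there were 4 of the 9, against 8.77% of all genes. Ntrk2, Fgfr1 and Fgfr3 were higher, as 6.32% of all genes were, and Fgf9 lower, as 2.46% were. All 3 same-numbered differences had one sign in 6 of the 9, and in 39.8% of all genes. The largest difference was 0.32 log2, or 1.25-fold, and the widest 95% confidence bound of the 9 corresponded to 1.52-fold. In 3 of the 9, Fgf9, Fgfr1 and Ntrk2, the MCAO and sham values did not overlap, which held for 13.8% of all genes. The median of the 9 differences was 0.023 log2, beside -0.0064 for all genes.

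**Figure D1:**
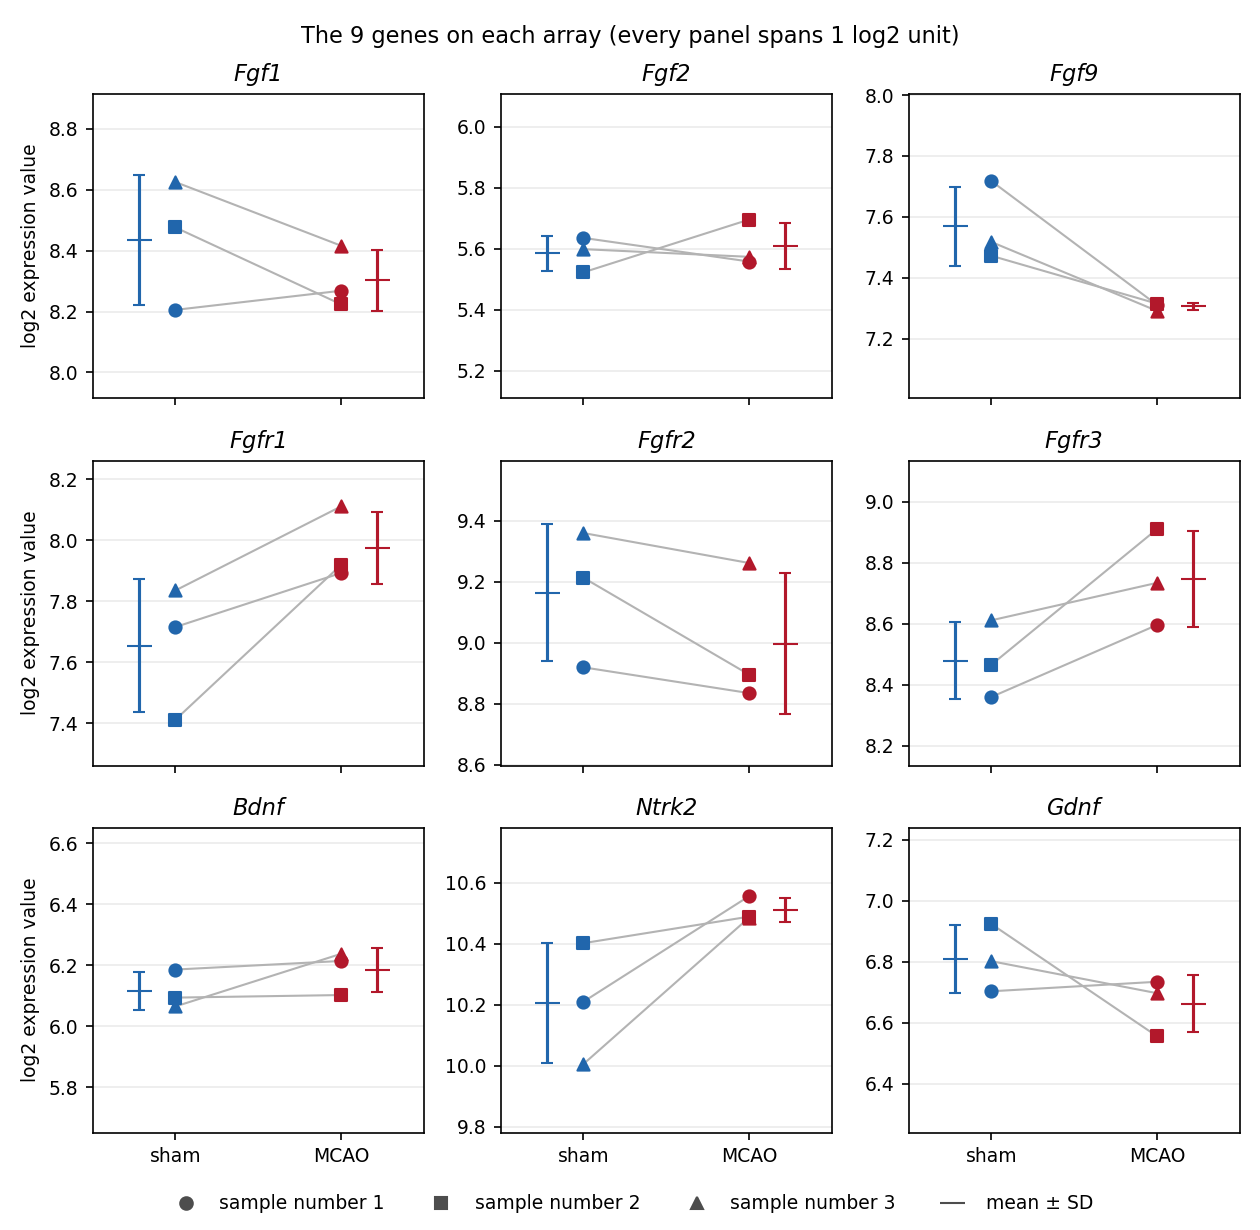
Log2 expression value of each of the 9 genes (vertical axes, each panel spanning 1 log2 unit) in the 3 sham and 3 MCAO arrays, with grey lines joining same-numbered samples and bars giving mean ± SD of 3 arrays. Fgf9 is lower and Fgfr1 and Ntrk2 are higher on every MCAO array than on every sham array, while the groups overlap for the other 6 genes.

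Among the ligands of the FGF family, Fgf9, a factor made by neurons and some glia, was lower on all MCAO arrays. It read 7.31, 7.32 and 7.29 log2 in MCAO samples 1, 2 and 3, and 7.72, 7.47 and 7.52 in sham samples 1, 2 and 3. The MCAO values were thus nearly equal, and the groups did not overlap. The difference was -0.26 ± 0.085 log2 (SE, n = 3 per group), with limma's unadjusted p = 0.0153 and adjusted p = 0.332. Within same-numbered samples it was -0.41, -0.16 and -0.23, and limma's adjusted p was 0.0695 in the blocked fit. On the deposited values limma gave an unadjusted p of 0.0622 without the block, and an adjusted p of 0.265 with it. Without sham 1 the difference was -0.19. The second Fgf9 probe set, 1420795_at, gave -0.27, also without overlap between the groups.

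Fgf1, an FGF that binds all FGF receptors, overlapped between the groups. Its values were 8.27, 8.22 and 8.42 log2 in MCAO and 8.21, 8.48 and 8.62 in sham. The lowest of all 6 was sham 1, and the other sham arrays were the highest. The difference was -0.13 ± 0.12 log2 (SE, n = 3 per group; limma's adjusted p = 0.908), with 1 same-numbered difference above 0 and 2 below. It was -0.25 without sham 1 and -0.038 without sham 3.

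Fgf2, the ligand most used to expand neural progenitors, was among the dimmest genes measured, with a mean at percentile 2.79 of all genes. It read 5.56, 5.70 and 5.57 log2 in MCAO and 5.64, 5.52 and 5.60 in sham. The values of both groups were interleaved. The difference of 0.023 ± 0.076 log2 (SE, n = 3 per group) had a 95% confidence interval from -0.15 to 0.20 and changed sign without MCAO 2 (-0.020) or sham 2 (-0.0080). Without any other single array it lay between 0.030 and 0.049. The files used here give no detection call, so whether Fgf2 stood above background is not known.

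The FGF ligand genes were described from a list of 22, all measured, that includes Fgf1, Fgf2 and Fgf9. Of these 22, 6 lay above the median gene in sham samples. None passed, 16 were lower and 6 higher in MCAO, and the median was -0.048 log2. After Fgf9 the smallest p-values belonged to Fgf11 (-0.20, limma's adjusted p = 0.601) and Fgf12 (-0.24, limma's adjusted p = 0.665). With Fgf13 (-0.19) and Fgf14 (-0.24) they make up the FGF homologous factors, intracellular proteins of neurons that bind sodium channels rather than FGF receptors. In all 4 the groups overlapped, with adjusted p between 0.601 and 0.796, and between 0.0838 and 0.158 with the block. Fgf13 and Fgf14 were picked out after their values were seen.

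Of the FGF receptors, Fgfr1, which neural progenitors express, was higher on every MCAO array. It read 7.89, 7.92 and 8.11 log2 in MCAO and 7.72, 7.41 and 7.84 in sham. Sham 2 was the lowest, and sham 3 came within 0.1 log2 of the lowest MCAO array. The difference was 0.32 ± 0.12 log2 (SE, n = 3 per group), or 1.25-fold, with limma's unadjusted p = 0.0317 and adjusted p = 0.465. Within same-numbered samples it was 0.18, 0.51 and 0.28, and without sham 2 the difference was 0.20. In the blocked fit Fgfr1 passed, at limma's adjusted p = 0.0415, the only one of the 9 members to do so. Of all genes 6.12% passed that fit, and 4.82% passed it as higher in MCAO. Blocking the deposited values without quantile normalization gave Fgfr1 an adjusted p of 0.0847. In limma's blocked fit over all 45101 probe sets, its brightest probe set had an adjusted p of 0.0877. The other Fgfr1 probe sets read 0.14 and 0.13 higher, with overlap between the groups in both. Each had a same-numbered difference below 0 (-0.082 and -0.036). The brightest, 1424050_s_at, carries a suffix that marks probes which may bind related transcripts.

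Fgfr3, expressed by astrocytes and their precursors, read 8.60, 8.91 and 8.73 log2 in MCAO and 8.36, 8.47 and 8.61 in sham. Sham 3 lay just above MCAO 1, so the groups touched. The difference was 0.27 ± 0.11 log2 (SE, n = 3 per group; limma's unadjusted p = 0.0367, adjusted p = 0.494, and 0.0806 with the block), and it was positive in all 3 numbered comparisons, at 0.24, 0.44 and 0.12. Its second probe set, 1425796_a_at, read 0.10 higher.

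Fgfr2, which oligodendrocytes and astrocytes express, pointed the other way without passing. Its values were 8.84, 8.90 and 9.26 log2 in MCAO and 8.92, 9.21 and 9.36 in sham. The spread within each group was larger than the difference between them. That difference was -0.17 ± 0.15 log2 (SE, n = 3 per group; limma's adjusted p = 0.911), and -0.084, -0.32 and -0.098 within same-numbered samples. It was -0.086 without MCAO 1 and -0.069 without sham 3, and -0.30 without MCAO 3 and -0.29 without sham 1. The second-brightest Fgfr2 probe set, 1420847_a_at, read 0.043 higher instead, and the dimmest, 1443211_at, differed by -0.028. The mean of all Fgfr2 probe sets had a difference of -0.051. The brightest, 1433489_s_at, carries the same suffix as that of Fgfr1.

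Around these receptors, Fgfrl1 rose. It encodes an FGF receptor-like protein that binds FGFs but lacks the kinase domain. Of the 18 measured genes of FGF receptors and coreceptors, 1 rose, 0 fell and 17 did not pass, with a median of 0.045 log2. Fgfrl1 read 8.51, 8.48 and 8.95 log2 in MCAO and 7.85, 7.91 and 7.88 in sham, with no overlap. The difference was 0.77 ± 0.13 log2 (SE, n = 3 per group), or 1.70-fold, at limma's adjusted p = 0.0413. The call was lost without MCAO 2 (adjusted p = 0.0574), sham 1 (0.111), sham 2 (0.127) or sham 3 (0.200), while the difference stayed between 0.61 and 0.85 whichever array was left out. Fgfrl1 was read by a probe set that may bind related transcripts, and its second probe set had the same direction.

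Next by p came Sdc4 and Gpc4, genes of heparan sulphate proteoglycans, which hold FGFs at the cell surface. Others of this class on the list, Sdc1 (-0.034), Sdc2 (-0.11) and Gpc1 (-0.042), read lower in MCAO without passing. The syndecan gene Sdc4 read 8.28, 8.11 and 8.60 log2 in MCAO and 7.93, 7.68 and 7.53 in sham, a difference of 0.62 (limma's adjusted p = 0.153, and 0.0146 with the block). For the glypican gene Gpc4 the difference was 0.32 (limma's adjusted p = 0.349, blocked 0.0770). In the blocked fit 4 of the 18 genes passed, all of them higher, where 4.82% of all genes passed as higher. They were Fgfr1, Fgfrl1, Sdc4 and the syndecan gene Sdc3, at 0.37. The other probe sets of Sdc3 had the opposite sign.

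Among genes that act below the FGF receptors, Ccnd1 rose. Of 19 measured adapters, targets and feedback inhibitors, 1 rose, 0 fell and 18 did not pass, with a median of -0.051 log2. Spry1, Spry2, Spry4, Dusp6, Etv4 and Etv5, feedback inhibitors and transcription factors often read as markers of FGF activity, differed by between -0.14 and 0.032 log2, each with an SE of up to 0.18. Their groups overlapped in all 6, the lowest limma adjusted p among them was 0.935, and these 6 were picked from the list after its values were seen. Ccnd1 encodes a G1 cyclin that many growth signals induce. It read 8.85, 8.53 and 9.13 log2 in MCAO and 7.50, 7.68 and 7.69 in sham, by 1.21 ± 0.15 (SE, n = 3 per group; limma's adjusted p = 0.0116, and 0.0743 without sham 3). The phosphatase gene Dusp4 read 0.23 higher (adjusted p = 0.542) and Spry3 0.11 lower on the log2 scale (a difference of -0.11, adjusted p = 0.861).

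**Figure D2:**
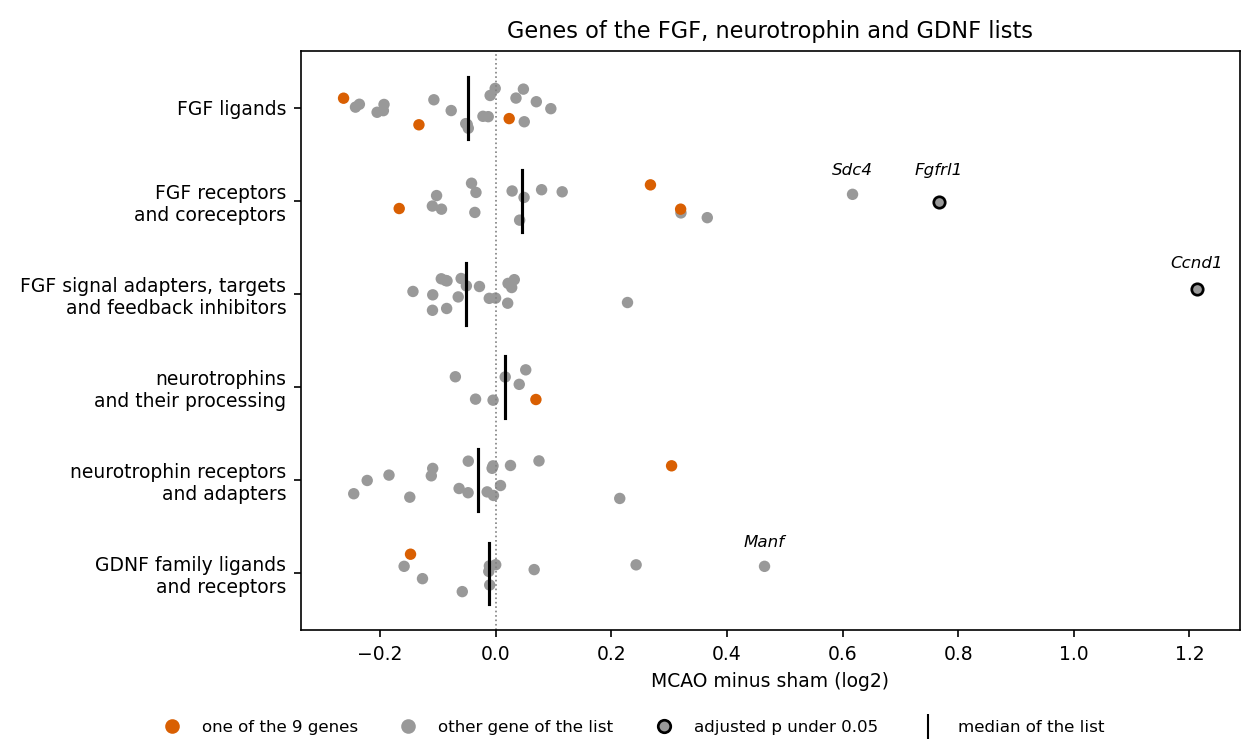
Difference between MCAO and sham (log2, horizontal axis) for each measured gene of the 6 pathway lists, with the 9 genes in orange, black outlines for an adjusted p under 0.05 and a bar at each list's median. Fgfrl1 at 0.77 and Ccnd1 at 1.21 are the outlined genes, and most others lie within 0.3 log2 of 0.

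Bdnf, the neurotrophin that cortical neurons make and send to the striatum, was dim, and its groups overlapped. It read 6.21, 6.10 and 6.24 log2 in MCAO and 6.19, 6.09 and 6.06 in sham. Every pair of same-numbered samples had the higher value in MCAO, by 0.028, 0.0084 and 0.17. The difference was 0.070 ± 0.076 log2 (SE, n = 3 per group; limma's adjusted p = 0.938), with a 95% confidence interval from -0.11 to 0.25. It was 0.11 without MCAO 2 or sham 1, 0.043 without MCAO 3 and 0.045 without sham 3. Its mean lay at percentile 19.7 of all genes, and its second probe set read 0.10 higher. Of the 7 measured genes of neurotrophins and their processing, none passed with or without the block. After Bdnf the smallest p-values were those of the plasminogen gene Plg (0.052) and the convertase gene Pcsk1 (-0.070); for 4 genes of this list no probe set was matched, and they were not analysed here.

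Ntrk2, the TrkB gene, was higher on every MCAO array by its brightest probe set. That probe set, 1420838_at, read 10.56, 10.49 and 10.49 log2 in MCAO and 10.21, 10.40 and 10.01 in sham. The MCAO arrays were close to one another, and the sham arrays varied more. The difference was 0.30 ± 0.11 log2 (SE, n = 3 per group), or 1.23-fold, with limma's unadjusted p = 0.0219 and adjusted p = 0.395. Within same-numbered samples it was 0.35, 0.087 and 0.48. The blocked adjusted p was 0.0638. Blocking the deposited values gave 0.0368, where 4.48% of all genes passed, 4.2% as higher in MCAO.

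The 8 probe sets of Ntrk2 did not share a direction: 4 were higher and 4 lower in MCAO. The second-brightest, 1458622_at, read 9.88, 9.64 and 9.64 log2 in MCAO and 10.21, 9.84 and 10.07 in sham, a difference of -0.32 ± 0.12 (SE, n = 3 per group; unadjusted p = 0.0256 by limma over all 45101 probe sets). MCAO 1 lay above sham 2, and the same-numbered differences were -0.33, -0.20 and -0.43. Probe set 1435305_at read 9.19, 8.94 and 9.12 in MCAO and 9.53, 9.21 and 9.49 in sham, without overlap. Its difference of -0.33 ± 0.11 passed with the block (limma's adjusted p = 0.0429, where 2.65% of all probe sets passed) and not without it (0.512). Probe set 1437560_at had a difference of -0.23, and the dim 1444121_at read 0.18 higher without overlap. Which TrkB transcript each probe set reads is not given in the sources used here.

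Within each array, the brightest Ntrk2 probe set minus the second-brightest was 0.67, 0.84 and 0.84 log2 in MCAO and -0.0053, 0.56 and -0.066 in sham. The level of this contrast has no meaning of its own, since probe sets differ in affinity. Its change does not depend on the scaling of an array, and every MCAO array lay above every sham array. It was 0.62 log2 higher in MCAO, with an exact permutation p = 0.1 (2-sided), the smallest that 3 samples against 3 can give. This permutation left the sample numbers out, although same-numbered arrays deviated together. The contrast restates the opposite signs of these 2 probe sets and is no separate evidence. The mean of all 8 probe sets had a difference of -0.037.

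**Figure D3:**
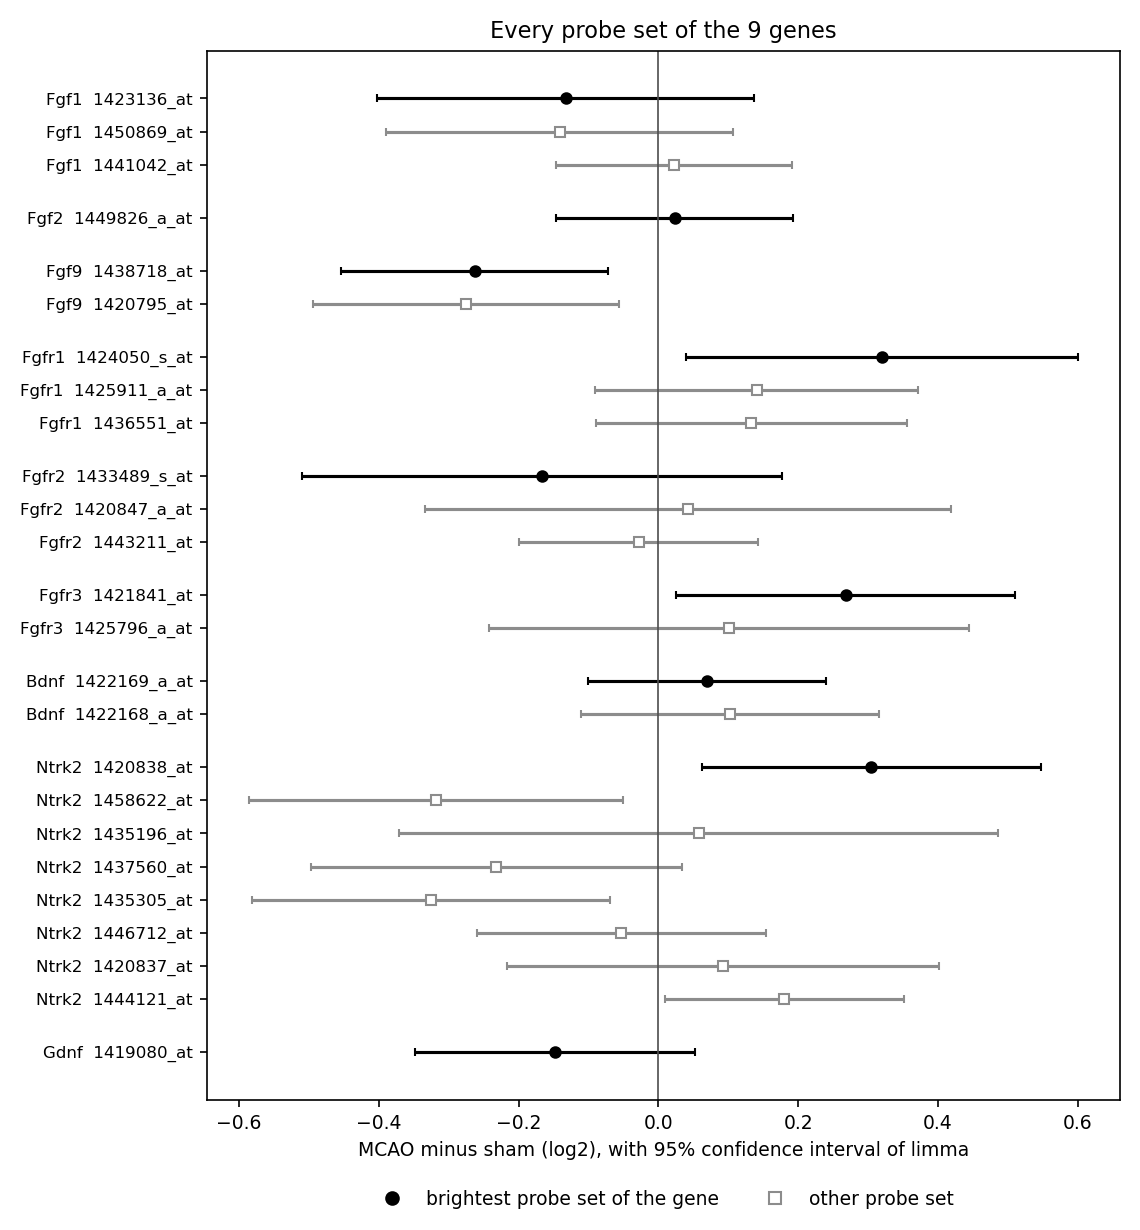
Difference between MCAO and sham (log2, horizontal axis) with its 95% confidence interval from limma over all probe sets, for the 25 probe sets of the 9 genes, ordered by brightness within each gene. Both Fgf9 probe sets lie below 0 and all 3 of Fgfr1 above it, while the Ntrk2 probe sets run from -0.33 to 0.30.

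Across all 25 probe sets 14 were higher and 11 lower in MCAO, and 0 had an adjusted p under 0.05 by limma, against 0.548% of all 45101; 8 had an unadjusted p under 0.05, against 7.02%. Fgf9, Fgfr1, Fgfr3 and Bdnf had several probe sets that agreed in sign. Fgf1, Fgfr2 and Ntrk2 had at least 1 against the brightest, and Fgf2 and Gdnf had only 1 probe set.

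The other receptors and adapters of neurotrophins included none that passed among 18 measured. Ntrk3, the receptor gene for neurotrophin-3, had the smallest p: it read 8.38, 8.57 and 8.57 log2 in MCAO and 8.76, 8.72 and 8.78 in sham, a difference of -0.25 ± 0.080 (SE, n = 3 per group; limma's adjusted p = 0.339, and 0.0835 with the block). The groups did not overlap, although 1 of its 8 probe sets had the opposite sign. Sort1, which encodes the proneurotrophin coreceptor sortilin, read -0.18 (adjusted p = 0.592). The list had 5 genes higher and 13 lower, with a median of -0.031.

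Gdnf, a survival factor for several kinds of neurons, read 6.73, 6.56 and 6.70 log2 in MCAO and 6.70, 6.92 and 6.80 in sham. MCAO 1 lay above sham 1, and the groups overlapped. The difference was -0.15 ± 0.089 log2 (SE, n = 3 per group; limma's adjusted p = 0.785), and -0.094 without MCAO 2 and -0.090 without sham 2. Its mean lay at percentile 39.6 of all genes. Of 11 measured genes of the GDNF list 0 passed, and 2 had an unadjusted p under 0.05, as 8.77% of all genes did. With the block 1 passed, where 6.12% of all genes did. That gene was Manf, which encodes an endoplasmic reticulum stress protein with neurotrophic activity, unrelated in sequence to GDNF. It read 9.84, 9.86 and 9.72 in MCAO and 9.52, 9.31 and 9.19 in sham, a difference of 0.47 (limma's adjusted p = 0.0992, and 0.00403 with the block). Gfra1, the GDNF coreceptor gene, read 0.24 higher (adjusted p = 0.526), and Ncam1, a neural adhesion molecule that can bind GDNF, -0.16 (0.570). Of the 7 Ncam1 probe sets 2 had the opposite sign, and the mean of its probe sets differed by -0.034.

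Over the 6 lists together, 2 of 95 distinct genes rose and 0 fell, or 2.11%, where 1.12% of all genes rose. In the blocked fit 6 rose, or 6.32%, where 4.82% of all genes did. The median difference of the 95 was -0.013 log2.

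Markers of other cell types moved in the same samples. All 7 microglia and macrophage markers were higher in MCAO (median 1.10 log2). Of these 4 rose, Aif1, Cd68, C1qa and Ptprc, and all 7 passed in the blocked fit. Their mean level ran from 8.78 to 9.38 log2 on the MCAO arrays and from 7.98 to 8.15 on the sham arrays. Astrocyte markers did not share a direction: 6 of 9 were higher and 3 lower, with a median of 0.16 and differences from -0.28 to 2.69. Aldh1l1 rose by 0.89 and Aqp4 by 0.97. Gfap, at 2.69, passed only in the blocked fit, as did Slc1a3, at 0.44. The mean level of the 9 ran from 10.52 to 10.63 in MCAO and from 9.94 to 10.11 in sham. Without Gfap it ran from 10.38 to 10.72 and from 10.18 to 10.27. All 6 striatal neuron markers read lower in MCAO (median -0.18), with mean levels of 11.03 to 11.30 against 11.26 to 11.53, and Drd1, at -0.34, passed only in the blocked fit. All 8 progenitor and neuroblast markers read higher in MCAO, with overlapping mean levels of 9.0 to 9.32 against 8.71 to 9.03, and Cd24a, at 0.66, passed only in the blocked fit. Mean levels of meninges and fibroblast markers ran from 6.65 to 6.78 against 6.52 to 6.54. In that list and the 6 others no marker passed with or without the block. Gfap, Slc1a3, Drd1 and Cd24a were named after their values were seen. On this array no marker has a value of 0. Fgfr1, Fgfr2, Fgfr3 and Ntrk2 are expressed in astrocytes. Of these, Fgfr2 read lower in MCAO (-0.17), and so did 4 of the 8 Ntrk2 probe sets. Fgf9 and Bdnf are expressed in neurons, and Bdnf read 0.070 higher. The part of these cell types in the differences above was not tested.

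**Figure D4:**
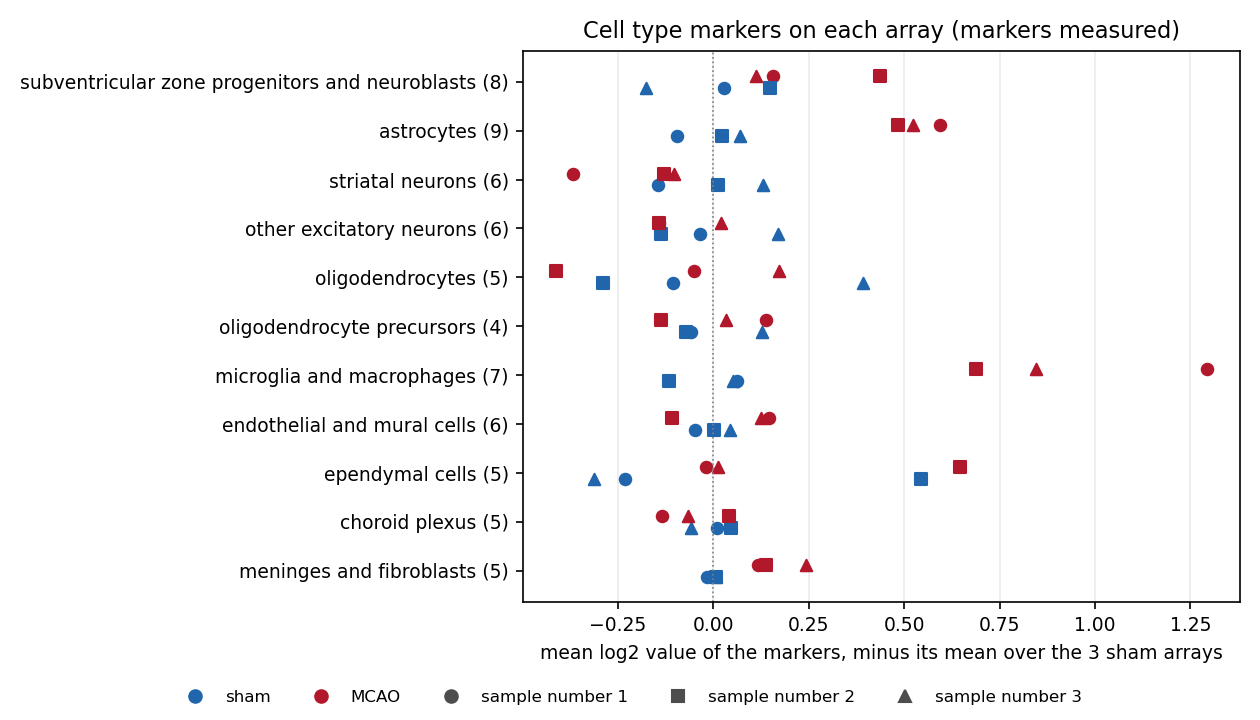
Mean log2 value of the measured markers of 11 cell types on each array, minus its mean over the 3 sham arrays (horizontal axis), with MCAO in red and sham in blue. The MCAO arrays lie above all sham arrays for microglia and macrophages, for astrocytes and for meninges and fibroblasts, while oligodendrocyte, choroid plexus and ependymal markers overlap.

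The genes whose 6 centred values lay nearest to those of the members were found by root-mean-square distance, among 18193 others. For Fgf9 they were Insrr, at 0.025 log2, and Map7d2, at 0.030, where the median gene was 0.19 away. For Ntrk2 they were Rps25 (0.041) and Kif23 (0.048), against a median of 0.22, and for Fgfr1 the non-coding RNA Neat1 (0.067) and Ybx3 (0.073), against 0.25. None of these 6 passed the test between MCAO and sham. They were chosen for likeness to members that did not pass, so this is no separate result.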

How the data were processed

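The authors deposited log2 expression values per probe set; array medians lie between 6.57 and 6.59, and the background correction, probe summary and normalization were not stated in any source used here. Quantile normalization was added because the 90th percentile varied between arrays (8.85 to 9.06). The platform annotation gave 1 symbol to 34958 of 45101 probe sets, several to 932 and none to 9211; the 34958 gave 18194 genes. MCAO and sham (3 arrays each, a number that limits the precision) were compared by limma 3.58.1 in R 4.3.3 (lmFit, eBayes), 2-sided. Benjamini-Hochberg adjustment ran over all genes, with a threshold of 0.05. The fit was checked on simulated independent arrays with changes larger than those of the members. That check does not cover differences as small as the members' or deviations shared by same-numbered arrays. The sample number entered as a block in an alternative fit: same-numbered arrays deviated together, which is where the pairing comes from, not the labels.

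The members, lists and tests were chosen with earlier results of these data known. Text names the 9 members, list genes past the threshold or the 3 with the smallest p where fewer than 3 passed, marker genes past the threshold, and the 2 nearest genes of the 3 members with the smallest p. Genes named because they passed with the block, and those said to be picked after their values were seen, are exceptions. So are Dcx, Sox2 and Nes, named as examples of their list, and Sdc1, Sdc2 and Gpc1, named beside Sdc4 and Gpc4. Alternatives covered scaling, probe set choice, variance model, a filter on dim genes and arrays left out.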

Additional observations from a re-analysis of the deposited data

How the results depend on the processing

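No member passed under any alternative without the sample-number block. With the replicate block 1 member passed, Fgfr1 (0.32 log2), and on blocked deposited values 1, Ntrk2 (0.34); no other member's call changed. The block raised the genes past the threshold to 877 higher and 236 lower, 765 and 51 on the values as deposited, and the pathway list genes to 6 in both. Without one array, genes past the threshold numbered 44 (without sham 3) to 188 higher and 0 to 21 lower, and pathway list genes 0 to 2. Without both arrays numbered 1, 26 genes were lower; 0 were on the values as deposited or with a common median, and 1 with robust variance or without dimmer genes. Without one array, Fgf2 ran from -0.020 to 0.049 and Pcsk1 from -0.15 to 0.037 (0.029 without both arrays numbered 1). Leaving out single arrays also moved the differences of Fgf1, Fgfr1, Fgfr2, Bdnf and Gdnf by over 1.5 times without changing their sign. Signs opposite to the brightest probe set came from Fgf1's 1441042_at (0.022), Fgfr2's 1420847_a_at (0.043) and Ntrk2's 1458622_at (-0.32), 1437560_at (-0.23), 1435305_at (-0.33), 1446712_at (-0.053) and probe set mean (-0.037), with or without the block, which was added for single probe sets after seeing the data. The cause was not tested. Fgf2, Bdnf and Gdnf lie below the median gene and drop out without dimmer genes.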
